A study of Homo sapiens with 2 samples.

Results

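Transcripts of the BMP ligands BMP2, BMP4, BMP5 and BMP7 and of the ID genes ID1, ID2, ID3 and ID4 were followed across the cell types of human stem cell-derived islet-like clusters. The 8 genes were taken by symbol from the 33694 genes of the deposited count tables, and each was found once. The cells came from Mel1-INS-GFP, a human embryonic stem cell line with a GFP reporter in the insulin gene. Its iSOX9KO derivative carries a doxycycline (DOX)-inducible Cas9 and several guide RNAs against SOX9 at the AAVS1 safe-harbour locus, and both groups share this insertion. One group received 0 ug/ml DOX and the other 2 ug/ml, starting at day 12, just before endocrine cells form. Per the study's methods, GFP-high cells were sorted, reaggregated into enhanced beta-clusters and cultured further before live cells were loaded for droplet single-cell RNA-seq. The earlier endocrine medium contained LDN-193189, an inhibitor of BMP type I receptors, and the media contained an ALK5 inhibitor. Each group is 1 library, so the libraries were compared by level and no test between conditions was possible.

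BMPs are secreted ligands of the TGF-beta family that bind type I and type II receptor kinases, which phosphorylate SMAD1, SMAD5 and SMAD9. These enter the nucleus with SMAD4 and switch on target genes, of which ID1 and ID3 are among the most direct. ID proteins are helix-loop-helix proteins without a DNA-binding region: they pair with E proteins (TCF3, TCF4, TCF12) and keep these from working with tissue factors such as NEUROG3 and NEUROD1. In the pancreas, ID proteins are associated with progenitors and ducts, and BMP4 with its receptor BMPR1A is known from beta cells.

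The deposited counts are unique molecular identifiers (UMIs), 1 per captured transcript. The libraries hold 550240855 UMIs in 30288 barcodes (no DOX) and 520849221 UMIs in 31817 barcodes (DOX), with medians of 15991 and 14431 UMIs per barcode, and 369 barcode sequences occur in both. After a minimum of 1000 UMIs and removal of predicted doublets (7895 and 8338), 44926 cells remained, 21808 and 23118 per library. SOX9, the targeted gene, measured 2.998 UMIs in every 1000000 (counts normalized to that total, CPM) under the no DOX label and 3.78 under the DOX label, and 254 and 283 CPM in duct-like cells. SOX9 RNA was thus not lower under the DOX label, which says nothing of the protein, and the libraries are named below by their labels. Leiden clustering, run without the 8 genes and the other genes of their pathway, gave 6 classes named by markers. In the order no DOX and DOX, these held 7014 and 9886 beta-like cells, 5283 and 5330 beta cell progenitor-like cells, 5159 and 4219 alpha-like cells, 2637 and 1927 delta-like cells, 418 and 405 proliferating progenitor-like cells, and 152 and 178 duct-like cells. One cluster of 1145 and 1173 cells, with 71.0% mitochondrial UMIs at the median, was left unnamed.

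The ID genes are short single-locus genes, and the sequence just before the start is shown here for ID1, ID3 and ID4. Sequence further upstream was not examined, and binding of SMADs or E proteins was not measured. On GRCh38 (Gencode 44), ID1 lies at chr20:31605283-31606515 (+), ID2 at chr2:8678845-8684461 (+), ID3 at chr1:23557926-23559501 (-) and ID4 at chr6:19837370-19842197 (+). The ligand genes lie at chr20:6767686-6780246 (+) for BMP2, chr14:53949736-53958761 (-) for BMP4, chr6:55753653-55875590 (-) for BMP5 and chr20:57168753-57266641 (-) for BMP7. The 250 bases before the RefSeq start (GRCh38.p14) of ID1 (chr20:31605039-31605288, +), ID3 (chr1:23559502-23559751, -) and ID4 (chr6:19837120-19837369, +) follow, 5′ to 3′ on the gene's strand. Capitals mark the 4-base SMAD box GTCT or its complement AGAC. The first 2 genes are the pair followed in single cells below, and ID4 is shown as the member with another pattern.
ID1: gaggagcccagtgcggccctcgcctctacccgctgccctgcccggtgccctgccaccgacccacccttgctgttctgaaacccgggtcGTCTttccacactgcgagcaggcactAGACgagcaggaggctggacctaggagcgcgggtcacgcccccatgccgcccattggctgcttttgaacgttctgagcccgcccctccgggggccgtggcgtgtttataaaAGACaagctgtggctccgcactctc
ID3: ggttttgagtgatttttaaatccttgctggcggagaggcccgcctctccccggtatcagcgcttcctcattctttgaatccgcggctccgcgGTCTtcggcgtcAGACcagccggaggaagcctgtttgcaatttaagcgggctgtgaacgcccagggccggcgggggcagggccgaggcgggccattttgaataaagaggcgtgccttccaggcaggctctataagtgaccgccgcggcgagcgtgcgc
ID4: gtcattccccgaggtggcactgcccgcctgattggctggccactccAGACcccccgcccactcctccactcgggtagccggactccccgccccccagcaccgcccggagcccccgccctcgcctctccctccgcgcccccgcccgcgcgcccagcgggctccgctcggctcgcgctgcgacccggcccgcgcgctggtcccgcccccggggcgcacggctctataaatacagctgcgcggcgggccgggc
The SMAD box occurred 3 times before ID1 (first bases 162, 136 and 25 bases before the start), 2 times before ID3 (158 and 146) and 1 time before ID4 (204). The ID2 window is not printed, since 202 of its 250 bases lie in an ID2 exon, and it held 2 boxes (103 and 95). On either strand, 77.5% of 35116 RefSeq windows of this length hold at least 1 box, and the median is 1. The longer element GGCGCC occurred in none of these windows, against 16.4% of all windows. The E-box CANNTG occurred 1 time before ID4, 21 bases before the start, and not before ID1 or ID3, against 61.8% of all windows. TATAAA occurred 2 times before ID1, overlapping at 33 and 31 bases before the start, and 1 time before ID4 at 29, and not before ID3, against 10.7% of all windows. The ID1 window overlaps an exon of the antisense gene ENSG00000289875 and 6 bases of an ID1 exon, the ID4 window lies within the antisense gene LNC-LBCS, and the ID3 window holds no Gencode feature. Whether the counting used strand is not given in the sources used here, and reads from antisense partners were not examined.

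The ligands divided the endocrine classes between them. BMP4 was highest in beta-like cells and BMP2 lowest there, while BMP2 was highest in beta cell progenitor-like and delta-like cells. BMP7 was highest in duct-like cells and BMP5 in alpha-like cells. ID3, ID2 and, in the library labelled no DOX, ID4 were highest in duct-like cells, ID1 was highest in duct-like and beta cell progenitor-like cells, and ID1 and ID3 were lowest in beta-like and alpha-like cells.

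**Figure D1:**
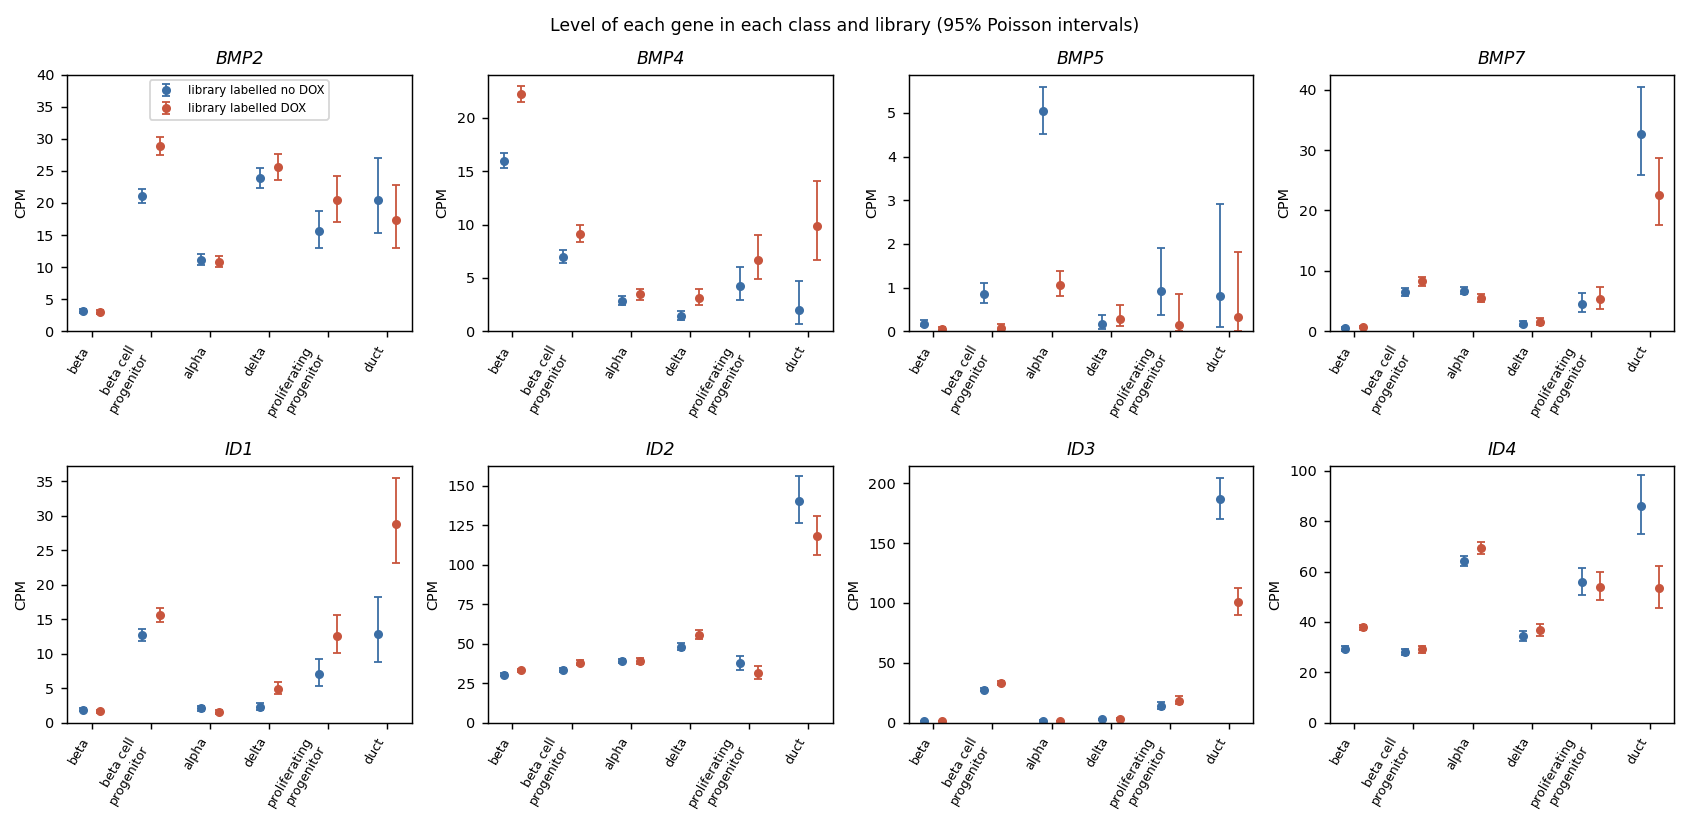
Level of each of the 8 genes (CPM, linear axis from 0) in the 6 named classes, 1 point per library with its 95% Poisson interval, which covers counting error only. BMP4 peaks in beta-like cells at 15.98 and 22.2 CPM and ID3 in duct-like cells at 187 and 101 CPM.

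BMP4, which acts on cells through BMPR1A and related receptors, reached 15.98 CPM in beta-like cells under the no DOX label (95% Poisson interval 15.3 to 16.7) and 22.2 CPM under the DOX label (21.5 to 22.9). These and all later CPM and ratio intervals cover counting error only, since PCR, culture and clone are not replicated. They take UMIs as independent and leave out variation between cells, and are too narrow where few cells hold most UMIs. Intervals of cell shares cover the sampling of cells within a library. In beta cell progenitor-like cells BMP4 measured 6.98 and 9.13 CPM, in alpha-like cells 2.84 and 3.45, and in delta-like cells 1.43 and 3.16. Beta-like cells stood above beta cell progenitor-like cells by 1.20 and 1.28 on the log2 scale in the 2 libraries, past counting error in each, and the order of the lower classes was not the same in both. The larger of 2 Beta-1-like finer clusters, of 11528 cells, carried 45.7% and 61.4% of all BMP4 UMIs while making up 19.6% and 31.3% of cells. Its level there was 17.4 and 24.6 CPM, against 11.8 and 14.1 CPM in the other Beta-1-like cluster of 2928 cells and 14.3 and 15.5 CPM in the Beta-2-like one. With each cell thinned to 5000 UMIs, 6.85% and 9.26% of beta-like cells held a BMP4 UMI (16.9% and 20.5% unthinned), against 0.492% and 1.21% of delta-like cells, with median depths of 17971 and 14734.5 UMIs in beta-like and 13386 and 12021 in delta-like cells.

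BMP2, a close relative of BMP4 that uses the same receptors, ran the other way in beta cells. Its level was 3.18 CPM (2.88 to 3.50) and 3.02 CPM (2.76 to 3.31) in beta-like cells, against 21.1 (20.02 to 22.2) and 28.9 (27.5 to 30.3) in beta cell progenitor-like cells. Delta-like cells had 23.8 and 25.5 CPM, duct-like cells 20.5 and 17.4, proliferating progenitor-like cells 15.7 and 20.4, and alpha-like cells 11.2 and 10.8. Among neighbours in this order, alpha-like over beta-like cells and proliferating progenitor-like over alpha-like cells differed past counting error in each library. The log2 ratio of beta cell progenitor-like over delta-like cells was -0.18 (-0.30 to -0.05) under the no DOX label and 0.18 (0.04 to 0.31) under the DOX label. These 2 classes thus changed places past counting error. The other upper steps were not past it in each library. BMP2 and BMP4 thus stood at opposite ends of the order in beta-like cells. Over the 12 class and library points, the correlation of BMP2 with BMP4 on the log2(CPM + 1) scale was -0.63, a description over points that share libraries and depth. Thinned, 9.50% and 12.5% of beta cell progenitor-like cells held a BMP2 UMI against 1.55% and 1.38% of beta-like cells, whose median depth was the greater (17971 and 14734.5 against 10814 and 9484).

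BMP7, a ligand of the BMP5/6/7 subgroup known from developing epithelia, was highest in duct-like cells at 32.6 CPM (25.9 to 40.5) and 22.6 CPM (17.6 to 28.6). Beta cell progenitor-like cells had 6.48 and 8.28 CPM, alpha-like cells 6.69 and 5.44, delta-like cells 1.21 and 1.58, and beta-like cells 0.525 and 0.661. Duct-like cells exceeded the pooled endocrine classes (beta-like, alpha-like, delta-like and beta cell progenitor-like) 9.80-fold and 7.23-fold. BMP7 UMIs were found in 15.8% and 7.34% of thinned duct-like cells and in 0.211% and 0.251% of beta-like cells, with median depths of 14160.5 and 14704.5 in the duct-like class.

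BMP5, of the same subgroup, was scarce and alpha-like: 5.04 CPM (4.52 to 5.597) in alpha-like cells under the no DOX label and 1.06 CPM (0.798 to 1.37) under the DOX label. Every other named class lay under 1 CPM in each library. A large part of this signal came from few cells. In the finer clustering, a cluster of 210 cells led by CTGF and CCK (167 and 43 cells, most of them alpha-like in the coarser clustering) held 36.7% of BMP5 UMIs (163 of 444) under the no DOX label and 20.5% (16 of 78) under the DOX label, with 0.766% and 0.186% of cells. BMP5 measured 105 and 43.9 CPM in this cluster against 0.895 and 0.204 CPM in all other cells. BMP7 was high in the same cells, at 79.7 and 79.6 CPM against 3.20 and 3.26 elsewhere, while ID3 measured 2.57 and 5.49 CPM on 4 and 2 UMIs, against 8.78 and 9.03 elsewhere, with an interval that included no difference under the DOX label and levels above those of alpha-like cells. The cluster's median depth was 8614 UMIs and it matched no named class. Of 8 endothelial markers its highest was CLDN5 at 52.7 and 82.3 CPM, with PECAM1, CDH5 and TEK at 0. Without these cells, alpha-like BMP5 measured 2.94 and 0.759 CPM, and alpha-like BMP7 5.14 and 4.97.

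**Figure D2:**
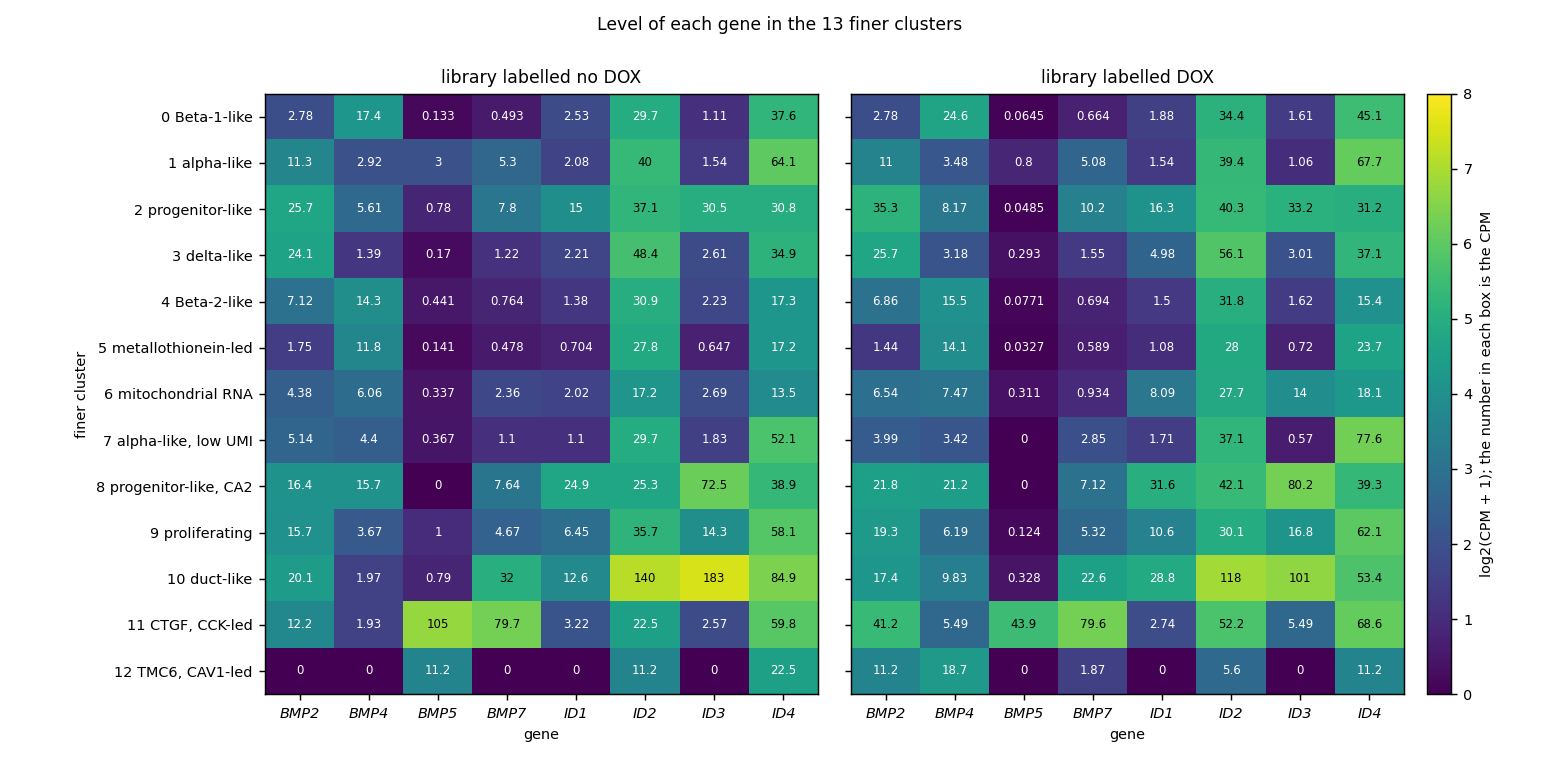
Level of each gene in the 13 finer clusters, 1 panel per library, with colour for log2(CPM + 1) and the CPM printed in each box. The cluster led by CTGF and CCK stands out for BMP5 (105 and 43.9 CPM) and BMP7 (79.7 and 79.6 CPM), and the duct-like cluster for ID2 and ID3.

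ID3, one of the most direct BMP targets, spanned the widest range of the ID genes. Duct-like cells had 187 CPM (170 to 204) and 101 CPM (89.7 to 113), beta cell progenitor-like cells 27.4 and 33.1, and proliferating progenitor-like cells 14.2 and 18.3. Delta-like cells had 2.64 and 2.99 CPM, alpha-like cells 1.69 and 1.19, and beta-like cells 1.10 and 1.40. Each step down from duct-like to alpha-like cells was past counting error in each library, and alpha-like and beta-like cells did not hold 1 order. ID3 was 25.9-fold and 12.9-fold higher in duct-like cells than in the endocrine classes, and 24.8-fold and 23.6-fold higher in beta cell progenitor-like than in beta-like cells. Thinned, 34.2% and 24.3% of duct-like cells and 8.79% and 9.40% of beta cell progenitor-like cells held an ID3 UMI, against 0.527% and 0.648% of beta-like cells.

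ID1, regulated much like ID3 by SMADs, kept nearly the same order of classes. It measured 12.9 CPM (8.80 to 18.2) and 28.8 CPM (23.1 to 35.5) in duct-like cells, 12.7 and 15.6 in beta cell progenitor-like cells, and 7.04 and 12.6 in proliferating progenitor-like cells. Delta-like cells had 2.24 and 4.94 CPM, alpha-like cells 2.07 and 1.51, and beta-like cells 1.85 and 1.62. Of the steps between neighbours, the one from proliferating progenitor-like to delta-like cells was past counting error in each library. Over the 12 points ID1 and ID3 had a correlation of 0.92, BMP7 and ID3 of 0.85, and ID1 and ID4 of 0.06, again as descriptions.

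ID2 lay between 30.3 and 55.6 CPM in the endocrine classes and was highest in duct-like cells. It reached 141 CPM (126 to 156) and 118 CPM (106 to 131) in duct-like cells, 48.2 and 55.6 in delta-like cells, 39.0 and 38.9 in alpha-like cells, 33.2 and 38.0 in beta cell progenitor-like cells and 30.3 and 33.3 in beta-like cells. Duct-like over delta-like and delta-like over alpha-like cells differed past counting error in each library, while the lower classes lay close together. ID2 UMIs were found in 47.3% and 42.9% of thinned duct-like cells and in 13.7% and 14.4% of beta-like cells, with no background share measured from empty droplets.

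ID4, an ID gene known from neural progenitors, peaked in a different endocrine class. Alpha-like cells had 64.2 and 69.3 CPM, duct-like cells 86.1 (74.9 to 98.4) and 53.4 (45.5 to 62.3), and proliferating progenitor-like cells 55.8 and 54.0. Delta-like cells had 34.5 and 36.7 CPM, beta-like cells 29.4 and 37.9 and beta cell progenitor-like cells 28.0 and 29.2. Among the finer beta clusters it was highest in the larger of the 2 Beta-1-like ones, at 37.6 and 45.1 CPM, against 17.2 and 23.7 CPM in the smaller, led by metallothionein genes, and 17.3 and 15.4 CPM in the Beta-2-like cluster, of whose 3372 cells 1356 are beta cell progenitor-like in the coarser clustering. Alpha-like cells exceeded proliferating progenitor-like cells, and these exceeded delta-like cells, past counting error in each library, while duct-like and alpha-like cells changed places between the libraries.

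Past 1.5-fold in each library, 5 of 7 genes at 5 CPM or more were higher in duct-like cells than in the pooled endocrine classes. These were BMP2, BMP7, ID1, ID2 and ID3, and 0 were lower. Over all 12011 genes at that level, 27.3% were higher and 22% lower, so a high share of genes passed this limit in either direction. Summed over ID1 to ID4, duct-like cells had 426 and 301 CPM against 84.2 and 91.3 in the endocrine classes, and the 4 ligands 55.9 and 50.1 against 25.4 and 29.5. BMP7 and ID1 lay under 5 CPM in the endocrine classes and so entered this count only through duct-like cells. BMP2 was not higher in duct-like cells (20.5 and 17.4 CPM) than in delta-like cells (23.8 and 25.5). Beta cell progenitor-like cells also had more BMP2 (21.1 and 28.9). Under the no DOX label, ID1 was near level in duct-like and beta cell progenitor-like cells (12.9 and 12.7). BMP4 stood lower in duct-like cells in each library, at -2.21 and -0.57 on the log2 scale, and BMP5 had 2 and 1 UMIs there, too few to give a direction. For beta cell progenitor-like over beta-like cells, 4 of 7 genes were higher (BMP2, BMP7, ID1, ID3; 47.8% of 11100 genes) and BMP4 was lower (5.99% of genes). All 4 higher genes lay under 5 CPM in beta-like cells and entered through the class in which they were high, so this count is a description. The median of all genes in this contrast was 0.59 and 0.60 on the log2 scale, and relative to it ID3 stood at 4.05 and 3.97, BMP7 at 3.04 and 3.05, ID1 at 2.20 and 2.68, BMP2 at 2.14 and 2.66, and BMP4 at -1.78 and -1.88. ID2 changed sign with this centring, from 0.13 and 0.19 to -0.45 and -0.40. Alpha-like over beta-like cells gave BMP2, BMP5, BMP7 and ID4 higher (4 of 6; 11.7% of genes) and BMP4 lower (8.96%), and delta-like over beta-like cells BMP2 and ID2 higher (2 of 4; 9.78%) and BMP4 lower (13%). These counts are descriptions too, since BMP2, BMP5 and BMP7 reached 5 CPM only outside beta-like cells, BMP5 in alpha-like cells of 1 library alone, and BMP4 reached it, within these contrasts, only in beta-like cells. Without the CTGF and CCK cluster, alpha-like BMP5 lay under 5 CPM in each library.

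In beta cell progenitor-like cells, ID1 was found more often in cells that held ID3. Among beta cell progenitor-like cells thinned to 5000 UMIs in the library labelled no DOX, 141 of 445 cells with an ID3 UMI also held an ID1 UMI, or 31.7% (exact 95% interval 27.4 to 36.2), against 98 of 4620 cells without one, or 2.12% (1.73 to 2.58). In the library labelled DOX the shares were 35.8% (174 of 486) and 1.73% (81 of 4684). Beta-like cells showed the same split at low numbers, with 9 of 35 against 0.515% and 11 of 62 against 0.547%. Alpha-like and delta-like cells gave few cells to compare, with 7 of 28 and 0 of 16 alpha-like cells with an ID3 UMI also holding ID1, and 1 of 28 and 4 of 22 delta-like cells. Among the ligands, BMP2 was found in 10.1% of beta cell progenitor-like cells with and 9.44% without an ID3 UMI (no DOX), and in 11.7% and 12.6% (DOX). BMP4 was found in 6.07% (4.04 to 8.71) with and 3.05% (2.57 to 3.59) without (no DOX), and in 6.38% (4.37 to 8.93) and 4.06% (3.51 to 4.66) (DOX), so its intervals did not overlap in the former library and did in the latter.

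**Figure D3:**
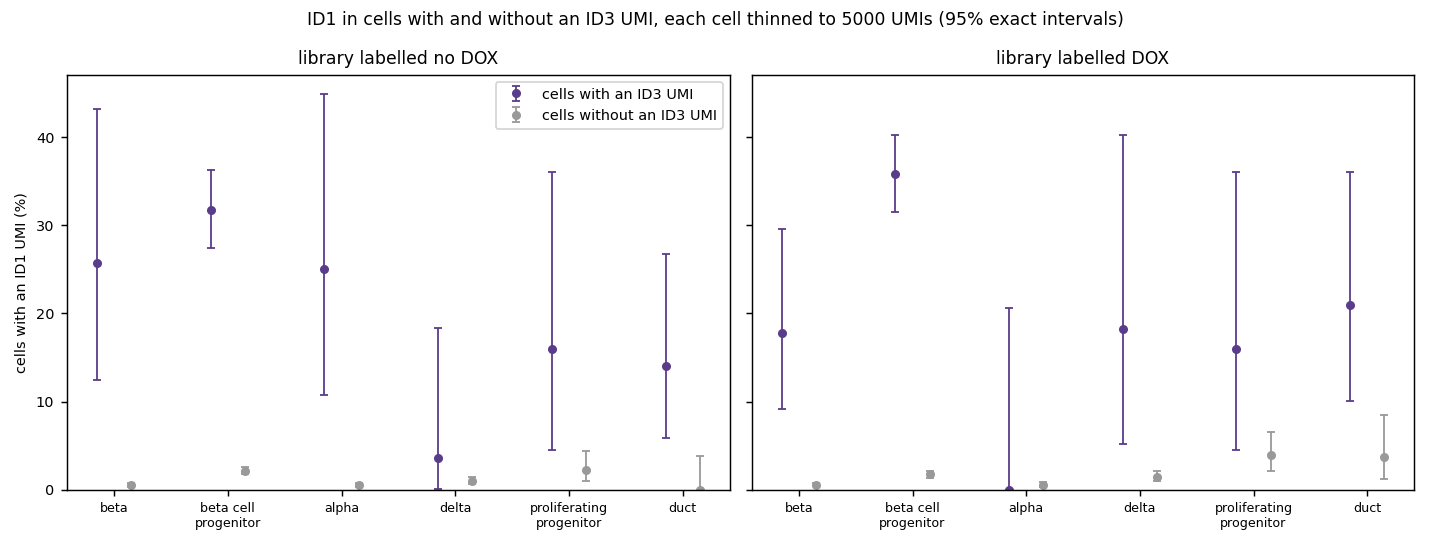
Share of cells with an ID1 UMI (percent, axis from 0) among cells with and without an ID3 UMI, by class and library, each cell thinned to 5000 UMIs, with exact 95% intervals. In beta cell progenitor-like cells the share is 31.7% and 35.8% with ID3 and 2.12% and 1.73% without.

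Most beta cell progenitor-like cells held no ID3 UMI, and a small set held many. Cells with at least 5 ID3 UMIs numbered 101 of 5283 (1.91%) and 108 of 5330 (2.03%), and carried 41.9% and 42.4% of the class's ID3 UMIs. The limit of 5 was set after the counts were seen, and ID3 itself is the basis of the choice. They were spread over the larger progenitor-like finer cluster (78 and 73 cells, 1.95% and 1.85% of its cells in the class) and the smaller one led by CA2, TAC1 and PHOX2A (22 and 34 cells, 4.65% and 4.59%). Their depth was like that of the cells without ID3, with medians of 11935 against 10831 UMIs and 9186.5 against 9525.

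The other ID genes were higher in these cells, in both libraries. ID1 measured 205 CPM (182 to 230) against 3.28 (2.83 to 3.78) in cells with 0 ID3 UMIs under the no DOX label, and 255 against 2.92 under the DOX label. ID2 measured 171 against 23.8 CPM and 195 against 27.4, a 7.21-fold and 7.12-fold difference. ID4 measured 66.4 against 23.0 CPM and 74.6 against 24.2, or 2.88-fold and 3.08-fold. Cells with 1 to 4 ID3 UMIs lay between for ID1 (49.3 and 70.9 CPM) and ID2 (79.2 and 91.3). Higher by over 1.5-fold in each library were 4.72% of the 11606 genes tested in this contrast, with ID1, ID2, ID4, SMAD9, DLX5 and HEY1 among them. ID1 and HEY1, and under the no DOX label DLX5, reached 5 CPM only in the cells with at least 5 ID3 UMIs, so this list is a description.

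Of the 11 other known BMP target genes listed, the largest counts in the same cells were those of SMAD9, DLX5 and HEY1. SMAD9, a SMAD of the BMP branch and a target of it, measured 23.4 CPM (15.97 to 33.0) against 8.82 and 31.2 CPM (21.9 to 43.3) against 9.24. DLX5, a homeobox gene induced by BMPs in bone, measured 13.1 against 2.95 CPM and 21.7 against 5.56. HEY1, a HES-related repressor that Notch also drives, measured 7.30 against 2.57 CPM and 6.08 against 3.40, and its interval in the library labelled DOX included no difference. SMAD7, an inhibitory SMAD, had 3 UMIs in these cells in each library, which is 2.19 CPM (0.451 to 6.397) against 0.139 and 2.60 CPM (0.537 to 7.61) against 0.139. SMAD6 and NOG were at 0 UMIs there, and BAMBI had 1 and 0 UMIs. The ligands showed no step past counting error. BMP2 measured 23.4 against 21.0 CPM and 27.8 against 28.7, and BMP4 7.30 against 6.60 and 8.68 against 8.23. BMP7 measured 6.57 against 5.94 and 10.4 against 8.29, and all these ratio intervals include 0 on the log2 scale. In these cells BMP4 rested on 10 and 10 UMIs and BMP7 on 9 and 12. The BMP4 intervals ran from -0.93 to 1.04 and from -0.99 to 0.97, so differences within them cannot be told from none.

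SOX9 and the duct markers lay far below their duct-like levels in this set. SOX9 measured 2.92 CPM (0.795 to 7.47) against 2.85 and 4.34 CPM (1.41 to 10.1) against 3.34. The 14 duct markers summed to 161 against 127 CPM and 144 against 131, compared with 8234 and 5724 CPM in duct-like cells. HES1, a Notch target on that duct list, measured 21.9 against 4.67 CPM and 13.9 against 8.38, and its interval in the library labelled DOX included no difference. The 7 immediate early genes, which cell dissociation is known to raise, summed to 325 against 363 CPM and 413 against 418. The beta cell progenitor markers summed to 6487 against 5152 CPM and 6604 against 5254, as a description, since these markers also served to name the class the cells were drawn from.

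**Figure D4:**
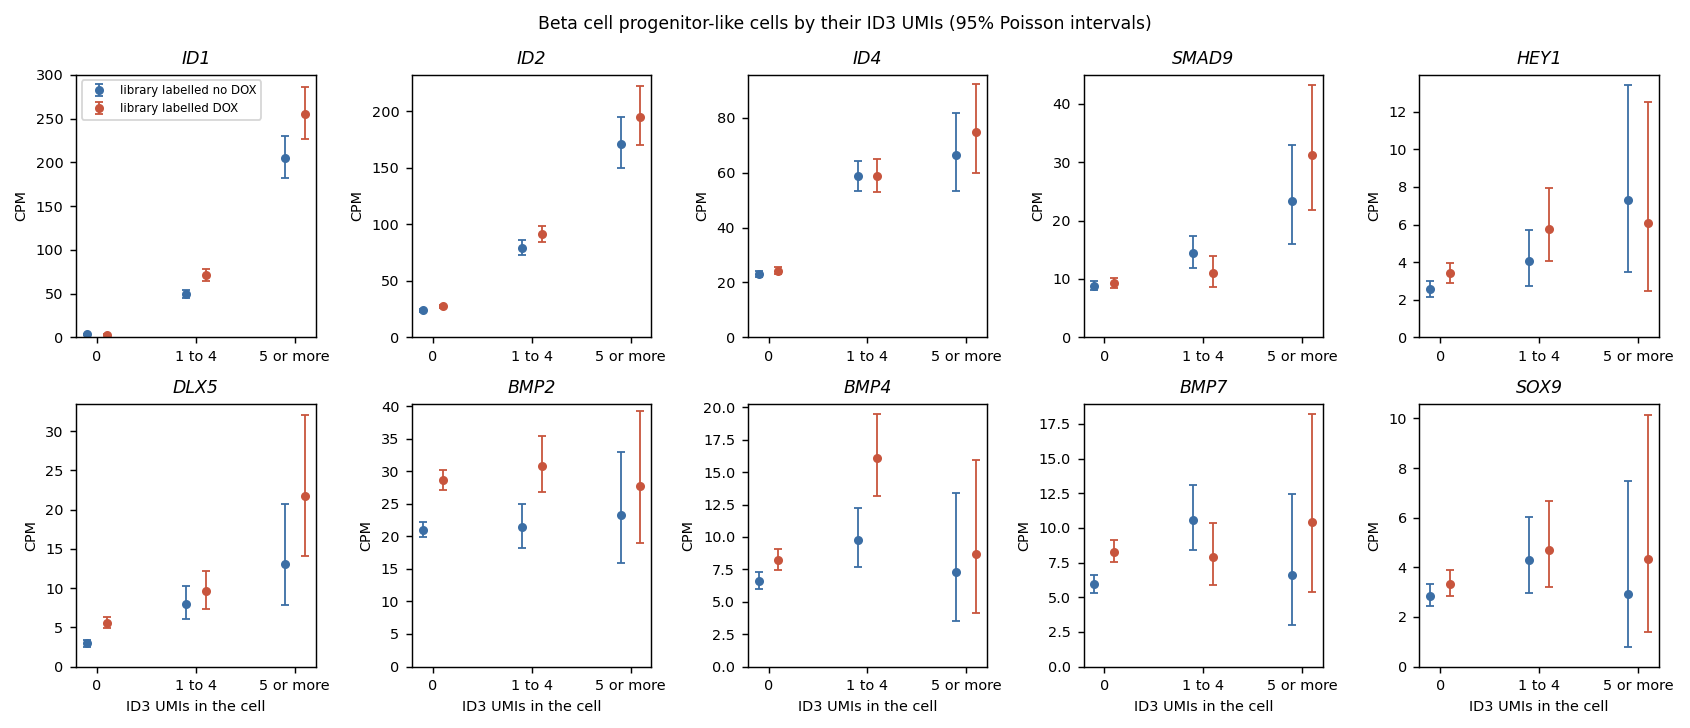
Level (CPM, linear axis from 0) of other genes in beta cell progenitor-like cells grouped by their ID3 UMIs (0, 1 to 4, 5 or more), 1 point per library with 95% Poisson intervals. ID1, ID2, SMAD9 and DLX5 are highest in the cells with most ID3, and BMP2, BMP4, BMP7 and SOX9 have overlapping intervals between the first and last group.

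Between the libraries, BMP4 was the ligand whose ratio had 1 sign in every class, with intervals that included 0 in alpha-like and proliferating progenitor-like cells. Over all cells kept it measured 9.08 CPM under the no DOX label and 14.3 under the DOX label, for a log2 ratio of 0.66 (0.59 to 0.73). It was the 1 of 6 members at 5 CPM or more that passed 1.5-fold, against 0.603% of 10444 genes. The library labelled DOX also held more beta-like cells, in which BMP4 is highest, and within beta-like cells the ratio was 0.47 (0.40 to 0.55), or 1.39-fold. The beta-like class also differed in makeup, with 4284 and 7244 cells in its largest finer cluster, where the ratio was 0.49 (0.40 to 0.59), against 0.26 (0.06 to 0.45) in the smaller Beta-1-like and 0.11 (-0.08 to 0.30) in the Beta-2-like cluster. By class, the ratio was 0.39 (0.21 to 0.57) in beta cell progenitor-like cells, 0.28 (-0.02 to 0.58) in alpha-like, 1.14 (0.61 to 1.68) in delta-like, 0.66 (-0.03 to 1.36) in proliferating progenitor-like and 2.29 (0.91 to 4.01) in duct-like cells. The duct-like value rests on 5 and 30 UMIs, in 4 and 23 cells. With 1 library per condition the ratios compare these libraries, and DOX, SOX9 editing, culture and preparation cannot be told apart. Counting intervals alone put 29.6% of all genes above 0 and 33.8% below it, so an interval that leaves out 0 is common here.

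**Figure D5:**
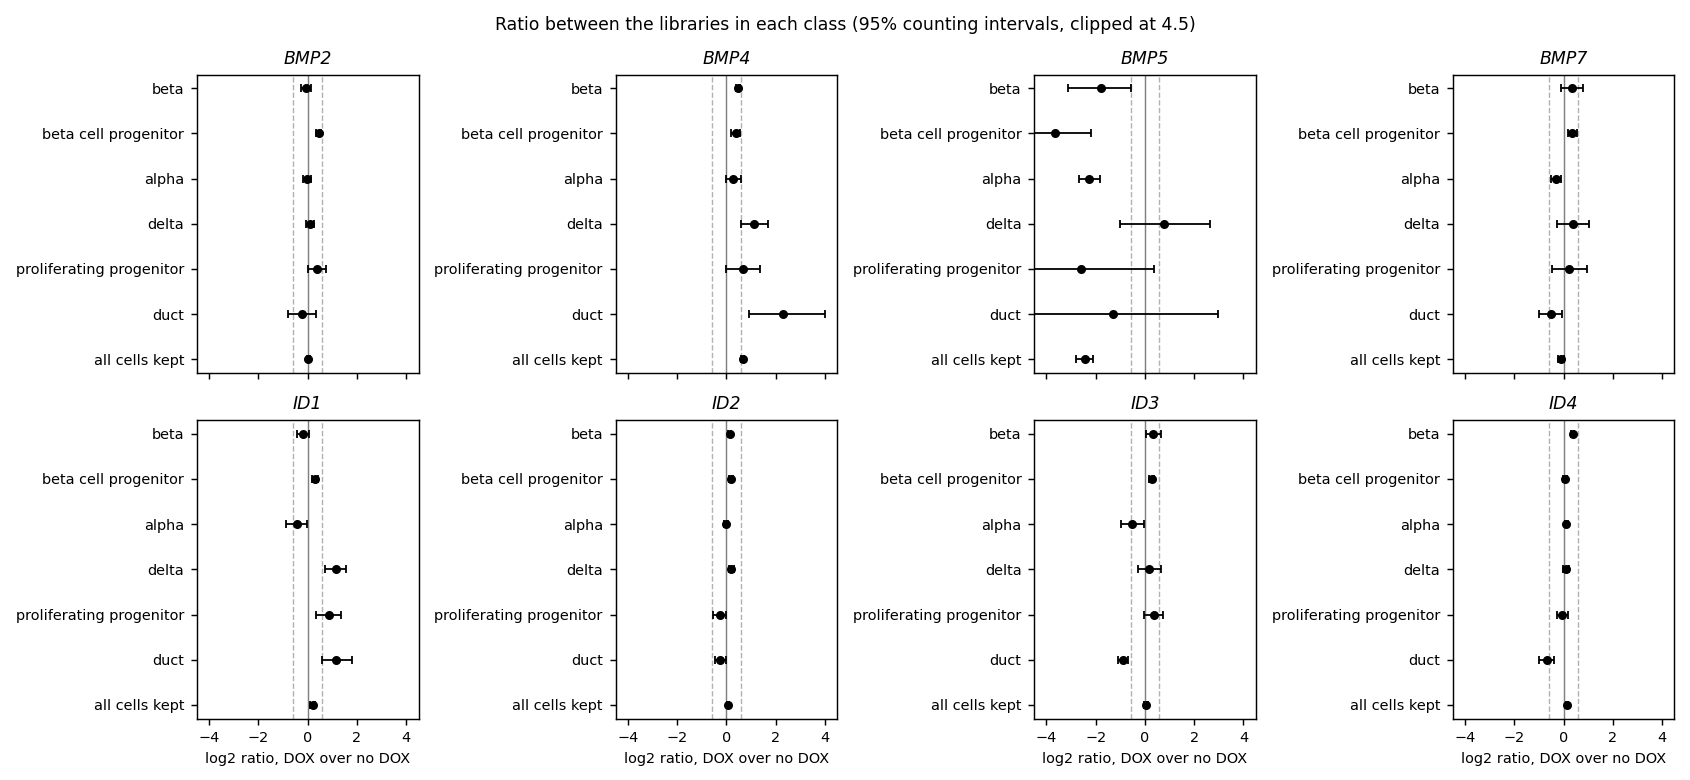
Log2 ratio, DOX label over no DOX label, for each gene, by class and over all cells kept, with 95% counting intervals; dashed lines mark 1.5-fold. BMP4 lies above 0 in 6 of 6 classes, and ID1 and ID3 lie on opposite sides of 0 in duct-like cells.

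BMP5 differed in the other direction. It measured 1.41 and 0.257 CPM over all cells, below the 5 CPM limit, with a log2 ratio of -2.45 (-2.82 to -2.10), and was the 1 of 5 members past 1.5-fold in alpha-like cells (0.969% of genes) at -2.25 (-2.69 to -1.84). It reached 5 CPM there only under the no DOX label, so that its entry among the genes compared depends on the difference itself and the count is a description. The CTGF and CCK cluster, with 167 cells under the no DOX label and 43 under the DOX label, moved with it, and without that cluster the alpha-like ratio was -1.95 (-2.48 to -1.46) and the level under 5 CPM in each library (2.94 and 0.759), so that the call is lost. BMP2 was nearly level over all cells, at 11.5 and 11.7 CPM, and 0.45 (0.35 to 0.56) higher in beta cell progenitor-like cells of the library labelled DOX. BMP7 measured 3.57 and 3.35 CPM over all cells.

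The ID genes were close between the libraries over all cells. ID1 measured 4.45 and 5.12 CPM, ID2 35.8 and 37.7, ID3 8.75 and 9.03, and ID4 38.2 and 41.9. Their sum was 87.1 and 93.7 CPM, which gave a log2 ratio of 0.11 (0.08 to 0.13), which turned to -0.14 when every named class was weighted equally. No member passed 1.5-fold in beta-like (0 of 3; 0.732% of genes), beta cell progenitor-like (0 of 7; 0.721%) or delta-like cells (0 of 3; 0.55%), where members under 5 CPM were left out. In proliferating progenitor-like cells BMP4 and ID1 passed it, both higher (2 of 7; 3.23%), ID1 at 0.84 (0.33 to 1.37) and BMP4 at 0.66 (-0.03 to 1.36), the latter reaching 5 CPM only under the DOX label.

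The duct-like class was the smallest and had the most members past the limit. There 4 of 7 members passed 1.5-fold, against 17.5% of 10997 genes: BMP4 and ID1 higher, ID3 and ID4 lower in the library labelled DOX. BMP4 was compared only because it reached 5 CPM under the DOX label. ID1 rested on 32 and 88 UMIs in 13 and 27 cells, with a ratio of 1.16 (0.57 to 1.80). ID3, at 187 and 101 CPM, had a ratio of -0.89 (-1.10 to -0.68), and 78.0% and 71.0% of its UMIs came from 30 and 22 cells with at least 5. ID4 stood at -0.69 (-0.99 to -0.39), ID2 at -0.25 and BMP7 at -0.53 (-1.01 to -0.05). Other markers moved in the same class. The 14 duct markers summed to 8234 CPM under the no DOX label and 5724 CPM under the DOX label, with 10 of them lower and 4 higher in the latter, among these HES1 (279 and 462 CPM). The sums of 7 acinar markers were 31.4 (24.8 to 39.1) and 77.4 CPM (67.8 to 87.9), with PNLIP at 0 in both and CTRB1 at 0 under the no DOX label. The 12 proliferation markers summed to 1237 and 1363 CPM, the 8 mesenchymal markers to 22.1 and 14.4 (DCN and LUM at 0), and the 6 pluripotency markers to 39.0 and 24.3 (POU5F1 at 0). Their part in the ID differences was not tested.

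The machinery that receives BMPs was present in every class. Of 7 BMP receptors, 5 reached 5 CPM in a class, led over all cells by the type II receptor ACVR2B (22.8 CPM), the type I receptor BMPR1A (21.6), BMPR2 (20.5) and ACVR2A (13.6). BMPR2 was highest in beta cell progenitor-like cells, at 44.1 and 44.8 CPM, against 15.1 and 16.1 in beta-like cells. The median of all genes in this contrast was 0.59 and 0.60 on the log2 scale, so many genes stood higher there. ACVR2A was highest in delta-like cells (39.0 and 40.3 CPM) and ACVR2B in duct-like cells (45.8 and 41.0). Of 6 co-receptors, NEO1 (24.4 CPM), RGMB (9.67), RGMA (7.65) and TGFBR3 (6.28) reached the limit. RGMB, which binds BMP2 and BMP4, was also highest in beta cell progenitor-like cells (26.7 and 22.5 CPM). NEO1 was lowest in that class (12.9 and 11.8 CPM) and highest in alpha-like cells (50.5 and 54.0). All 4 SMADs of the branch reached it: SMAD5 (101 CPM), SMAD4 (28.8), SMAD1 (14.6) and SMAD9 (10.1). SMAD9 measured 20.9 and 11.1 CPM in duct-like cells and 14.5 and 15.5 in beta-like cells, and was lowest in delta-like cells (0.701 and 0.623).

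Brakes on the pathway were uneven. The inhibitory SMADs SMAD6 and SMAD7, both BMP targets, stayed under 1 CPM over all cells (0.0210 and 0.152), while the ubiquitin ligases SMURF2 and SMURF1 measured 13.6 and 5.39. Of 23 secreted antagonists and modulators, 11 reached 5 CPM in a class, led by NBL1 (44.4 CPM), SMOC1 (27.2), the protease BMP1 (25.3) and TWSG1 (12.5), and NOG measured 0.0113 CPM. NBL1, an antagonist of BMP2 and BMP4, was highest in alpha-like cells (152 and 140 CPM) and lowest in beta cell progenitor-like cells (6.98 and 5.12). SMOC1 ran the other way, highest in beta cell progenitor-like cells (46.7 and 61.3 CPM), against 32.5 and 34.6 in alpha-like cells. Of 11 other target genes, HEY1 was highest in duct-like cells (182 and 106 CPM), as was the decoy receptor BAMBI (28.1 and 23.6). The E proteins TCF12 (16.4 CPM), TCF3 (14.2) and TCF4 (12.4), which ID proteins bind, were each highest in duct-like cells, TCF4 at 57.9 and 55.1 CPM. Of the tested genes in these lists, 0 passed 1.5-fold between the libraries in either direction, against 0.603% of all genes. Tested were 5 receptors, 4 co-receptors, 4 SMADs, 2 inhibitory SMADs and SMURFs, 5 antagonists, 3 E proteins and 1 other target. That other target is SMAD9, which is also among the 4 SMADs.

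Across the 12 class and library points, the 12513 genes at 5 CPM or more in a class were ranked by the Pearson correlation of their log2(CPM + 1) with that of each member, as a description over points that share libraries. Closest to BMP2 were STT3A (0.94), NREP (0.93) and MKL2 (0.93), and to BMP4 CCBE1 (0.89), TNFSF13B (0.88) and TMEM108 (0.87). Closest to BMP7 were COBL, LAMC1 and KLHL5 (all 0.97), and BMP5 was under 5 CPM in every class over both libraries and was not ranked. For ID3 they were GRIP2, BOD1L1 and CSNK1G2 (all 0.99), for ID2 CDH11, TNFAIP3 and PTN (all 0.99), for ID1 ZNF574 (0.98), PRPF38B and AC240274.1 (both 0.97), and for ID4 GUCY1B3 (0.97), GLIPR2 (0.96) and HPGD (0.96). The duct-like points lie far from the rest for BMP7, ID2 and ID3 and weigh heavily in their values.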

How the data were processed

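The deposited UMI count matrices, made by the authors with Cell Ranger (3.0.2 per the file headers) on GRCh38, were used as counts per gene and barcode; the submitters' processing notes also name kallisto and bustools 0.40.0, and the study clustered those counts, which were not used here. The labels' extraction text describes islets and an RNA kit and was not taken as the method of these libraries. Barcodes needed at least 1000 UMIs; Scrublet (scanpy 1.11.5), run per library, called 26.5% of them doublets, which were removed. Counts were log-normalized to 10000 per cell, total UMIs and mitochondrial share were regressed out, and 50 components and 3 neighbours per library entered Leiden clustering (leidenalg 0.10.2) at 0.2 (classes) and 0.5 (finer clusters), without the 99 genes of the members' and pathway lists. Class markers came from a study table made on these libraries; other-cell markers are textbook ones, of which 1 gene is not reported here.

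UMIs were summed per class and library and given as CPM with exact Poisson intervals, shares with Clopper-Pearson intervals, and ratios with exact conditional binomial intervals (scipy 1.17.1), all at 95%. A gene was counted as past the limit at 1.5-fold with at least 5 CPM in 1 side. Thinning drew 5000 UMIs per cell. The ratios and intervals were tested on simulated independent counts without variation between cells. Clustering, class naming and thinning were not tested in this way. Named were the 8 members, up to 4 genes per pathway list with the highest CPM plus any past 2-fold between libraries, and the 3 genes most like each member; other genes named beside them (among them RGMB's class values, SMAD6, SMAD7, NOG, BAMBI, DLX5, HES1 and the leading genes of clusters) were chosen after their values were seen. Members and lists were chosen with earlier results of these data known. Upstream sequence was in the RefSeq table for 6 of 8 members.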

Additional observations from a re-analysis of the deposited data

Results flagged for a closer look

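For 5 members, classes differed in opposite directions between the libraries, each with a counting interval on its own side of 0. The share of all genes that do so was not computed. Over all cells, 29.6% of genes had an interval above 0 and 33.8% below it, so the count of 5 is a description. With 1 library per condition the difference between classes was not tested. All values are log2 ratios, DOX label over no DOX label. BMP7 stood at 0.35 in beta cell progenitor-like cells, -0.30 in alpha-like cells and -0.53 in duct-like cells. The alpha-like value was -0.05 (-0.29 to 0.19) without the finer cluster led by CTGF and CCK. ID1 stood at 0.30 in beta cell progenitor-like, 1.14 in delta-like, 0.84 in proliferating progenitor-like and 1.16 in duct-like cells, and at -0.46 in alpha-like cells, where it had 143 and 80 UMIs. In that class 6 cells held 50.3% of the ID1 UMIs in the library labelled no DOX. ID2 stood at 0.14 in beta-like, 0.20 in beta cell progenitor-like and 0.21 in delta-like cells, and at -0.25 in duct-like cells.

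ID3 stood at 0.34 in beta-like and 0.27 in beta cell progenitor-like cells, and at -0.51 in alpha-like and -0.89 in duct-like cells. The beta cell progenitor-like class held 474 and 741 cells of the finer cluster led by CA2, TAC1 and PHOX2A, in which ID1 and ID3 are high. In that cluster ID1 stood at 0.34 (0.01 to 0.69) and ID3 at 0.15 (-0.06 to 0.35), and in the larger progenitor-like cluster ID1 at 0.12 (-0.03 to 0.28) and ID3 at 0.12 (0.01 to 0.23). ID4 stood at 0.37 in beta-like and 0.11 in alpha-like cells, and at -0.69 in duct-like cells. The beta-like class changed in makeup, with 4284 and 7244 cells in the larger Beta-1-like finer cluster, where ID4 is highest among the beta clusters. In that cluster ID4 stood at 0.26 (0.20 to 0.33) and ID3 at 0.55 (0.16 to 0.94), in the smaller Beta-1-like cluster at 0.46 (0.30 to 0.62) and 0.15 (-0.76 to 1.06), and in the Beta-2-like cluster at -0.17 (-0.35 to 0.02) and -0.46 (-1.04 to 0.10). ID1 and ID3 thus had ratios of opposite sign in duct-like cells. In duct-like cells with at least 5 ID3 UMIs (30 and 22 cells), ID1 measured 54.3 CPM (36.4 to 78.1) and 119 CPM (88.4 to 157).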

How the results depend on the processing

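No paired analysis was possible because each condition is 1 library. As a log2 ratio, the summed ID genes in duct-like over endocrine classes (2.03) gave 1.65 with doublets kept, 1.95 with cells thinned, 2.34 from the no DOX label alone and 1.72 from the DOX label alone, and the summed ligands (0.94) gave 0.61, 0.76, 1.14 and 0.77. Between libraries, the summed ID genes (0.11) reversed to -0.14 with named classes weighted equally, and so did ID2, at -0.060, and ID4, at -0.087, over all cells. The summed ligands (0.21) gave 0.15 with cells thinned, 0.13 with every cell weighted equally and 0.13 with classes weighted equally. The count of 1 member past 1.5-fold became 2 with classes weighted equally and 0 at a 20 CPM minimum. ID1 in alpha-like cells reversed to 0.15 with doublets kept, where no proliferating class could be named. The BMP4 ratio stayed positive in all 6 classes under every alternative that gave one, from 0.44 to 0.48 in beta-like and from 0.03 to 0.33 in alpha-like cells. Its range was wider in delta-like cells (0.90 to 1.54) and widest in duct-like cells (1.35 to 3.54). Without the CTGF and CCK cluster, a setting added once the data had been seen, the 4 sums gave 2.03, 0.97, 0.10 and 0.25 and the count stayed at 1. Of 589 alternative values of single-gene library ratios, 560 moved by less than their counting interval, 26 by more and 3 reversed. Depth limits BMP5 outside alpha-like cells, and ID1 and BMP4 in duct-like cells.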

Other observations

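Other bHLH factors and ligands gave further values. Of 16 other bHLH factors, the partners or rivals of ID proteins, 9 reached 5 CPM in a class and 0 of the 7 tested passed 1.5-fold between libraries. Of 12 activin, nodal and TGF-beta ligands 6 reached 5 CPM in a class and 0 of 5 tested passed 1.5-fold. Of 10 other BMP ligands, BMP3 and GDF6 reached 5 CPM in a class. BMP3 measured 9.02 and 3.74 CPM in alpha-like cells and 3.22 and 22.9 in duct-like cells, while beta cell progenitor-like cells had 6.47 and 3.77 CPM of GDF6. Of 7 immediate early genes 0 passed 1.5-fold between libraries. Their sum was lowest in beta cell progenitor-like cells (354 and 409 CPM) and highest in delta-like cells (2143 and 1966 CPM). Of 6 heat shock genes 2 were lower in the library labelled DOX, HSPA1A (94.6 and 27.2 CPM) and HSPA1B (39.7 and 13.9 CPM). In the unnamed cluster of high mitochondrial share, ID1 measured 1.81 and 7.97 CPM and ID3 2.90 and 13.3 CPM.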
